A study of Mus musculus with 4 samples.

Results

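*Sox5*, *Sox6* and *Sox9* form the chondrogenic Sox trio. They were taken by symbol from the count tables, which made 3 genes of 23284, and all 3 passed the filter on low counts that left 15645 genes to be tested. RNA came from live limb cells of C57BL/6J mouse embryos at E13.5, sorted by FACS for the GFP of the *Osr1* GCE allele, a knock-in of eGFP-IRES-CreERt2 that puts GFP under the *Osr1* promoter. The groups were 2 samples of heterozygous GCE/+ cells and 2 samples of homozygous GCE/GCE cells, which lack functional *Osr1*. Both genotypes carry the GCE allele, so neither group is wild type. The cells came from 2 embryos of each genotype, which the study treats as biological replicates. The sort takes cells by their GFP signal, with gates set on unstained controls. Homozygous cells carry more copies of the GFP allele than heterozygous cells, and any effect of this on the sort was not tested.

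Sox9 is a transcription factor of the SoxE group and is the master regulator of the chondrocyte lineage: without it, mesenchymal cells do not form cartilage. Sox5 and Sox6 are closely related SoxD proteins that lack a transactivation domain of their own. They act beside Sox9 on enhancers of cartilage matrix genes such as *Col2a1* and *Acan* and are themselves expressed downstream of Sox9 in chondrocyte precursors. In limb mesenchyme the same progenitors can also give tendon, bone and connective tissue. The comparison of the genotypes asks how the transcriptome of Osr1+ limb cells differs without functional Osr1.

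Total counts per sample ranged from 52121596 to 61402140, so that 3 counts, the floor set for detection, were worth 0.0489 to 0.0576 CPM (counts scaled to a common library size after TMM normalization). *Osr1* itself had 81.9 and 79.1 CPM in the heterozygous samples and 11.9 and 13.9 CPM in the homozygous ones, and it fell by 2.64 (SE 0.11) on the log2 scale, with a p of 5.94e-05 after Benjamini-Hochberg adjustment (quasi-likelihood test of edgeR, here and below). Connective tissue markers were abundant, with a summed level of 17230 to 22450 CPM over 10 genes. *Xist*, the RNA of the inactive X chromosome, had 1142 CPM in GCE/GCE replicate 1 and 0.572 to 2.63 CPM in the other 3 samples. The trio is therefore also given without that library. Between the genotypes, 140 genes were higher in GCE/GCE cells and 145 were lower at an adjusted p under 0.1. Leaving out 1 library moved the total of 285 calls to 961 without GCE/+ replicate 2 and to 748 without GCE/GCE replicate 1.

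All 3 genes of the trio rose in GCE/GCE cells. *Sox5* rose most, 2.28-fold, followed by *Sox6* with 1.96-fold and *Sox9* with 1.55-fold. In each of the 3 genes both GCE/GCE samples lay above both GCE/+ samples. The background for such an upward call was 0.895% of the 15645 genes tested, and 19.2% of them had both GCE/GCE values above both GCE/+ values. *Sox5* and *Sox9* were also among the genes that the study picked for follow-up from these libraries. Their direction is thus no independent evidence here, but the study's RT-qPCR on other embryos found both higher in *Osr1*-deficient cells. In sorted bulk cells, a larger number of cells of one type and more RNA in each cell cannot be told apart.

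*Sox9* (ENSMUSG00000000567.5) lies on the plus strand at chr11:112782224-112787760 in GRCm38 and has 1 transcript in the basic annotation, with 4135 exon bases. It was counted 4766 and 5160 times in GCE/+ replicates 1 and 2 and 7547 and 8807 times in GCE/GCE replicates 1 and 2. These counts correspond to 78.3, 98.7, 130.0 and 143.9 CPM. The lowest GCE/GCE sample was thus 1.32 times the highest GCE/+ sample. The group means were 88.5 ± 14.4 CPM in GCE/+ cells and 137 ± 9.8 CPM in GCE/GCE cells (SD, n = 2). The log2 fold change was 0.63 (SE 0.12), with an adjusted p of 0.0615. *Sox9* stood above 79.5% and 83.8% of the tested genes in the GCE/+ samples and above 88.6% and 89.9% of them in the GCE/GCE samples by CPM. Its transcript was therefore plentiful already in heterozygous cells.

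*Sox5* (ENSMUSG00000041540.16) occupies the minus strand at chr6:143828425-144781977 in GRCm38, a locus with 5 transcripts of the basic annotation that together cover 7425 exon bases. Its counts were 701 and 1044 in the GCE/+ samples and 1918 and 2364 in the GCE/GCE samples. As CPM these were 11.5, 20.0, 33.0 and 38.6. The genotypes did not overlap, and the nearest pair of samples differed 1.66-fold. The mean went from 15.7 ± 5.98 CPM to 35.8 ± 3.95 CPM (SD, n = 2). The log2 fold change of 1.19 (SE 0.22; adjusted p = 0.0615) was the 86th largest rise among the tested genes. An antisense gene, *Sox5os1*, shares 69 exon bases with *Sox5*. It was not analysed here, and the library kit does not mark strand, so reads of both over those bases cannot be told apart.

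*Sox6* (ENSMUSG00000051910.13) is likewise on a minus strand, at chr7:115470872-116038796 in GRCm38, with 8 transcripts in the basic annotation and 9362 exon bases. It was counted 709 and 998 times in GCE/+ cells and 1660 and 1932 times in GCE/GCE cells. The levels were 11.6, 19.1, 28.6 and 31.6 CPM in the same order. Here too the groups were apart, by 1.498-fold between the nearest samples. Means were 15.4 ± 5.26 and 30.1 ± 2.10 CPM (SD, n = 2). The log2 fold change was 0.97 (SE 0.20) with an adjusted p of 0.0806, the 154th largest rise, while that of *Sox9* ranked 443rd. No other annotated gene overlaps the exons of *Sox6* or *Sox9*.

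**Figure D1:**
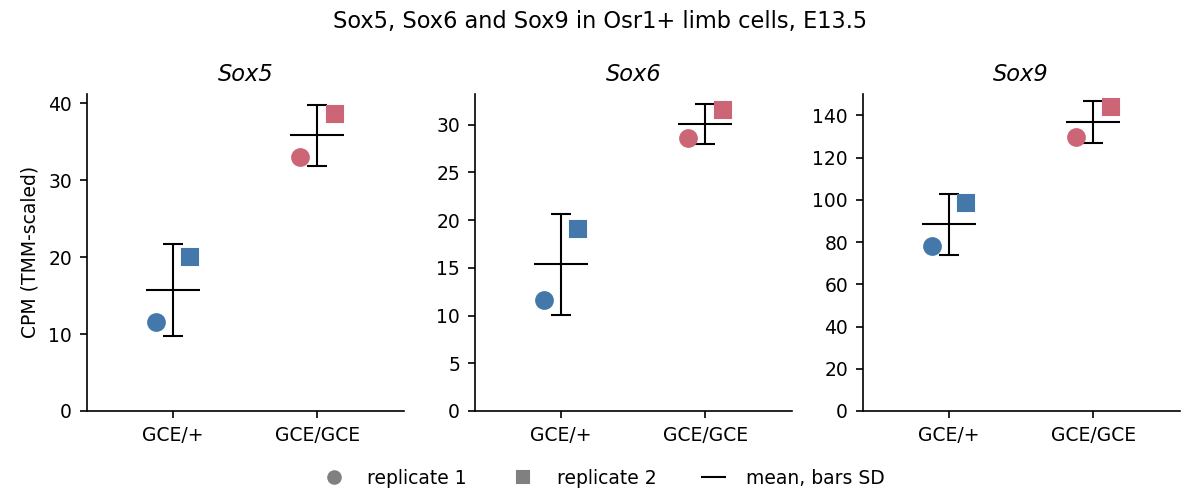
CPM of *Sox5*, *Sox6* and *Sox9* (y axes, linear and from 0) in the 4 samples, by genotype on the x axis; points are samples, with a circle for replicate 1 and a square for replicate 2, and bars give the mean ± SD of 2 samples. In each panel both GCE/GCE points lie above both GCE/+ points, and the GCE/+ points are spread widely, from 11.5 to 20.0 CPM for *Sox5*.

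The promoters of the SoxD genes were searched for the letters that Sox proteins bind, since the SoxD genes rose together with *Sox9*. RefSeq windows of 300 bases in GRCm38.p6, from 250 bases before to 50 bases after a start of transcription, were read for *Sox5* (1 window) and *Sox6* (6 windows). The motifs were ACAAAG and ACAATG, each on both strands. At least 1 of them was found in the *Sox5* window and in 5 of the 6 *Sox6* windows, beside 28.6% of all 32851 windows of that length. The *Sox6* windows held from 0 to 4 matches. The 8-letter motif of the Odd-skipped family, to which Osr1 belongs, ACAGTAGC, was in none of these 7 windows and in 0.898% of all windows. The lists of cartilage matrix and other chondrocyte genes held 24 genes, of which 19 had a window. *Col2a1* had none, and neither did *Sox9*, so these 2 genes were not searched. Of 24 windows of the 19 genes, 2 held a Sox motif (8.33%), both of *Epyc*. The windows are short and lie at start sites, and a match describes letters only.

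The *Sox5* window lies on the minus strand at chr6:143947057-143947356 and belongs to an internal start of the gene, with ACAATG 154 bases before the start. The *Sox6* window at chr7:116038695-116038994 is at the most upstream of the 6 starts, with ACAAAG 113 bases before it. The *Sox6* window at chr7:115995037-115995336, at a start further inside the gene, is shown because it holds the most matches, 4 in all. The matches are in capitals, and each sequence is written 5′ to 3′ on the minus strand, so that a match on the opposite strand reads CTTTGT or CATTGT.
Sox5, internal start: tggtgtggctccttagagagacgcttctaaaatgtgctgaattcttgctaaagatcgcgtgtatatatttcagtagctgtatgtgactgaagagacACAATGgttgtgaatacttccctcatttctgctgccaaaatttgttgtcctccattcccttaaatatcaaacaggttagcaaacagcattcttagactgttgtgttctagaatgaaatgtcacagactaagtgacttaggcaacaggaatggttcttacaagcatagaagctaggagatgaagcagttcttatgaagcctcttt
Sox6, upstream start: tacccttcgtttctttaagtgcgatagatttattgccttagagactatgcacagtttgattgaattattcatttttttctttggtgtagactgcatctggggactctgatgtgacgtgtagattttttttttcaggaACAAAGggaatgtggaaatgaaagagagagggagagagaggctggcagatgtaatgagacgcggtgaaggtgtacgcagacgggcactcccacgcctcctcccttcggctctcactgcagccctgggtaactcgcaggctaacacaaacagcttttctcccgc
Sox6, inner start: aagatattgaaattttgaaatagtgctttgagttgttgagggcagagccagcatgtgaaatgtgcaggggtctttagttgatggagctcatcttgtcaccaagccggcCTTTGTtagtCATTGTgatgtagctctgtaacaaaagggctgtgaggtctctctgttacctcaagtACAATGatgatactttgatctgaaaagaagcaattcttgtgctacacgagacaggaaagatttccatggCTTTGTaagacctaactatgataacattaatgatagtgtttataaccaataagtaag

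For each member, the GCE/+ samples differed from each other more than the GCE/GCE samples did. Between GCE/+ replicates 1 and 2 the level of *Sox5* differed 1.74-fold (95% exact counting interval 1.58 to 1.91), that of *Sox6* 1.64-fold (1.49 to 1.81) and that of *Sox9* 1.26-fold (1.21 to 1.31). Between the GCE/GCE samples the ratios were 1.17 (1.10 to 1.24), 1.10 (1.03 to 1.18) and 1.11 (1.07 to 1.14). Replicate 2 was the higher sample in each of these 6 pairs. Intervals and floors cover counting error only. Without GCE/+ replicate 1, the lowest sample, the log2 fold changes were 0.84 for *Sox5*, 0.65 for *Sox6* and 0.47 for *Sox9*, and without GCE/+ replicate 2 they were 1.64, 1.37 and 0.81. The rise kept its direction in all 3 genes whichever of the 4 libraries was left out. The lone sample was then assumed to vary like the other group, so these fits cannot show whether the calls hold. Without GCE/GCE replicate 1, the library with *Xist*, the values were 1.29, 1.04 and 0.70.

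The calls were close to the threshold. With the robust fit *Sox5* and *Sox6* no longer passed (adjusted p = 0.149 and 0.146), and none of the 3 passed when genes with low counts were kept in the test, with adjusted p of 0.149, 0.178 and 0.145. The study's tool, DESeq2, gave adjusted p of 1.64e-06 for *Sox5*, 9.60e-05 for *Sox6* and 0.000144 for *Sox9* at the same fold changes. It called 1.65% of its genes higher. A permutation of 2 samples against 2 cannot go below an exact p of 0.333, so no single-gene permutation test could pass. Across genes, the log2 fold change had a Spearman rho of 0.258 with exon length, where genes are not independent replicates. With offsets for each sample's trend on length, the rise was 1.12 for *Sox5*, 0.86 for *Sox6* and 0.62 for *Sox9*, each still past the threshold.

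**Figure D2:**
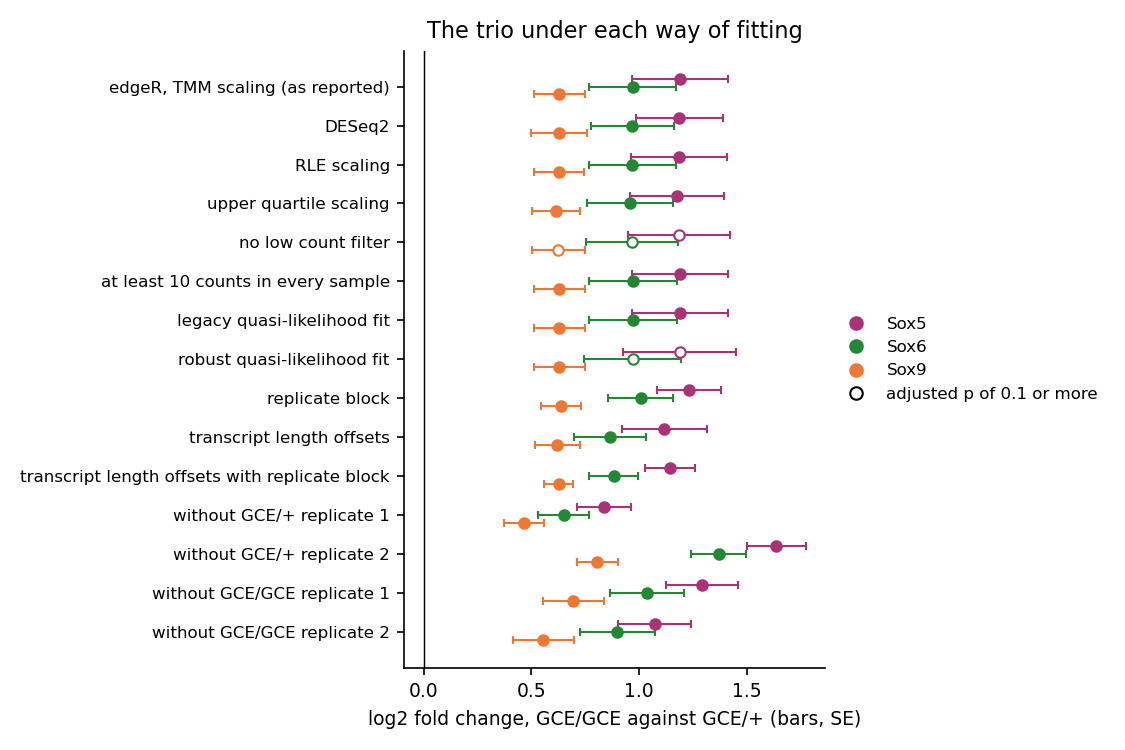
Log2 fold change of *Sox5*, *Sox6* and *Sox9* between GCE/GCE and GCE/+ cells (x axis; bars, SE) for each way of fitting the counts (y axis); open points have an adjusted p of 0.1 or more. Each value is above 0, and *Sox9* has the smallest rise in each fit.

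Per kilobase of exon, the members of the trio stood at unequal levels. *Sox9* had 18.9, 23.9, 31.4 and 34.8 CPM per kilobase in GCE/+ replicates 1 and 2 and GCE/GCE replicates 1 and 2. *Sox5* had 1.55, 2.69, 4.45 and 5.20, and *Sox6* had 1.24, 2.04, 3.05 and 3.37 on the same scale. The order *Sox9*, *Sox5*, *Sox6* thus held in each of the 4 samples, with *Sox5* and *Sox6* as close neighbours. Per exon length, *Sox5* was 8.19% and 11.3% of *Sox9* in the heterozygous samples and 14.2% and 14.95% in the homozygous ones. *Sox6* was 6.57% and 8.54% of *Sox9* in the heterozygous samples and 9.72% and 9.69% in the homozygous ones. Both SoxD genes were therefore higher relative to *Sox9* in GCE/GCE cells, and the genotypes did not overlap. The ratio of *Sox5* to *Sox6* moved less, from 1.25 and 1.32 to 1.46 and 1.54. Its counting intervals in both GCE/+ samples overlapped that of GCE/GCE replicate 1. These ratios are descriptions of 4 samples and were not tested.

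**Figure D3:**
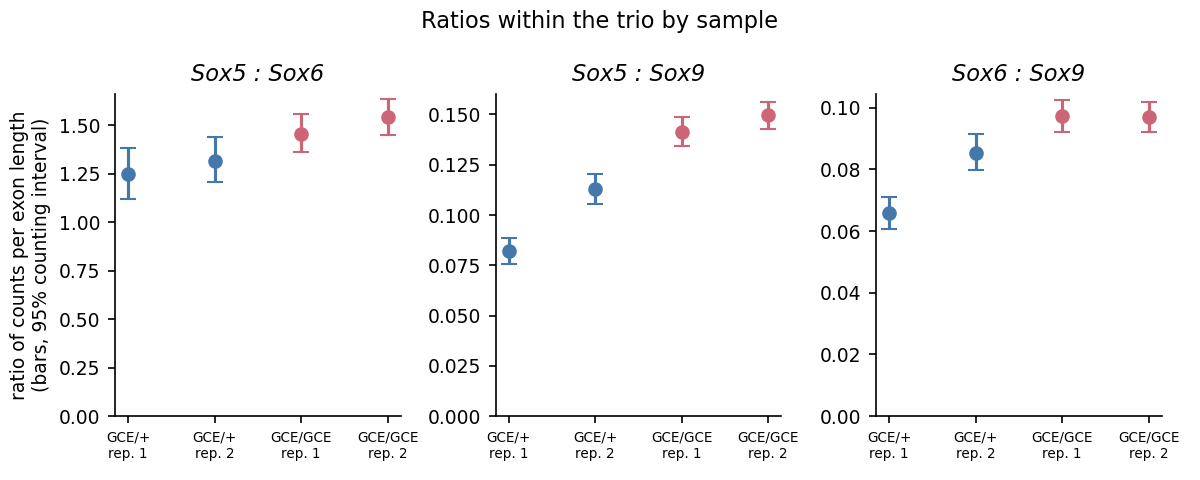
Ratios of counts per exon base between members of the trio (y axes, linear and from 0) in each of the 4 samples (x axes); bars are 95% exact counting intervals. *Sox5* against *Sox9* runs from 8.19% in GCE/+ replicate 1 to 14.95% in GCE/GCE replicate 2.

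The Sox genes are a large family of HMG-box transcription factors. Of 19 Sox genes measured, 15 were tested, and 3 passed the test, *Sox5*, *Sox6* and *Sox9*, all upward, beside 0.895% of all tested genes. Of the other 12 none passed with edgeR, and DESeq2 called 1 of them. At an unadjusted p under 0.05 there were 3 of the 12, and the share of all tested genes at that level was not counted. Of these 3, *Sox18* was lower in GCE/GCE cells (log2 fold change -0.96, adjusted p = 0.148), and *Sox4* and *Sox8* were higher. The median log2 fold change of the 15 was 0.09, beside 0.00334 for all tested genes. The 3 Sox genes with the highest mean CPM were *Sox11*, *Sox4* and *Sox9*. *Sox11*, a SoxC gene of mesenchymal and neural progenitors, had 236.5 and 253.7 CPM in the heterozygous samples and 222.4 and 262.7 CPM in the homozygous ones, with overlapping groups and a log2 fold change of -0.02. *Sox4*, also of the SoxC group, had 108.6 and 139.4 CPM against 165.9 and 158.4 CPM, with a log2 fold change of 0.39 and an adjusted p of 0.224. It was the gene that DESeq2 called, with an adjusted p of 0.0832.

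*Sox13*, the third SoxD gene, had 11.4 and 11.1 CPM in the heterozygous samples and 10.5 and 9.93 CPM in the homozygous ones. Its log2 fold change was -0.13 (SE 0.13). The other SoxE genes are *Sox8*, which overlaps in function with *Sox9*, and *Sox10*, a factor of neural crest and Schwann cells. *Sox8* had 8.85 and 10.9 CPM against 12.3 and 13.1 CPM, with a log2 fold change of 0.36 and an adjusted p of 0.407. *Sox10* was low, at 3.40 and 3.16 CPM against 3.96 and 3.04 CPM, and its groups overlapped.

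**Figure D4:**
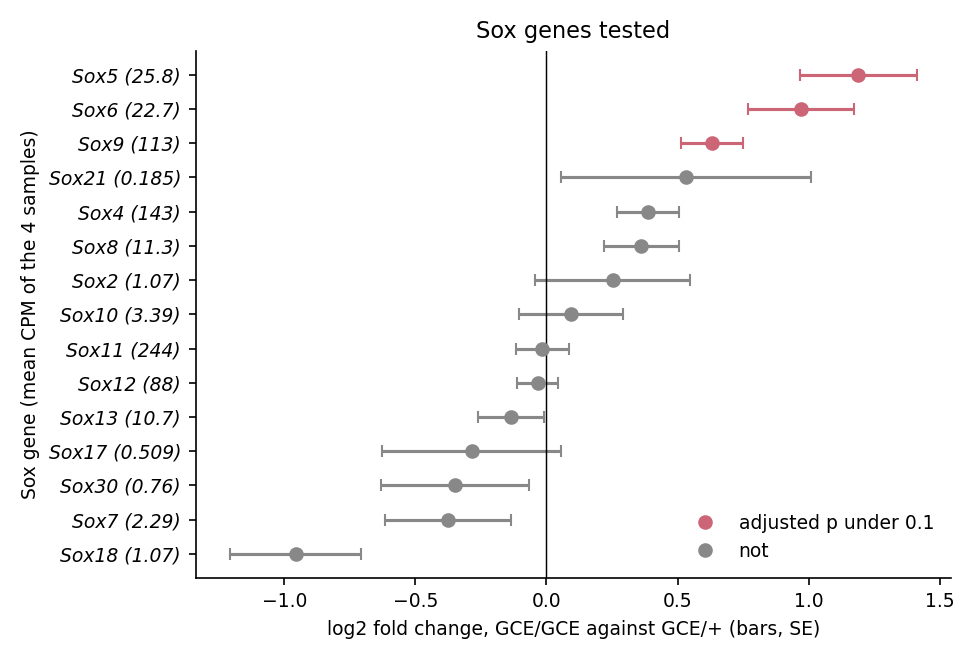
Log2 fold change between GCE/GCE and GCE/+ cells (x axis; bars, SE) of the 15 Sox genes tested (y axis, with the mean CPM of the 4 samples). *Sox5*, *Sox6* and *Sox9* are the 3 genes past an adjusted p of 0.1.

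The genes of the cartilage matrix, which the trio is known to drive, were also higher in GCE/GCE cells. Of 18 genes on the list 17 were tested, all but *Ucma*. In all 17 both GCE/GCE samples lay above both GCE/+ samples, beside 19.2% of all tested genes, and the median log2 fold change was 0.83. Of the 17, 4 passed the test, all upward, beside 0.895% of all tested genes. These were *Col11a1* (0.78, adjusted p = 0.0324), *Col9a2* (0.59, 0.0649), *Matn4* (0.81, 0.0679) and *Col9a1* (0.97, 0.0988). They encode chains of the collagens XI and IX of cartilage fibrils and matrilin 4, a linker of the matrix. This count moved with each library: 7 passed without GCE/+ replicate 1, 15 without GCE/+ replicate 2, 12 without GCE/GCE replicate 1 and 12 without GCE/GCE replicate 2, of 17 or 18 tested. DESeq2 called 4 as well, beside 1.65% of its genes, with *Comp* (adjusted p = 0.00851) in place of *Col9a1* (0.303). The median was 0.55 without GCE/+ replicate 1 and 1.22 without GCE/+ replicate 2.

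The matrix genes with the highest mean CPM were *Col2a1*, *Col11a1* and *Col27a1*. *Col2a1* encodes the main fibrillar collagen of cartilage and is the best known direct target of Sox9. It had 359 and 571 CPM in the heterozygous samples and 790 and 879 CPM in the homozygous ones. The groups did not overlap, but its log2 fold change of 0.84 (SE 0.19) missed the threshold with an adjusted p of 0.106. *Col11a1* stood at 256 and 325 CPM against 501 and 500 CPM. *Col27a1*, a fibrillar collagen of cartilage with a more modest difference, had 152 and 166 CPM against 188 and 186 CPM, a log2 fold change of 0.23 and an adjusted p of 0.335.

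The matrix genes also followed the trio between the GCE/+ samples, and less so between the GCE/GCE samples. In GCE/+ cells replicate 2 was above replicate 1 for 16 of the 17 genes, with a median log2 ratio of 0.67, whereas the median over all tested genes was -0.0015. Between the GCE/GCE samples replicate 2 was above replicate 1 for 11 of 17, with a median of 0.09. Per exon length, *Col2a1* was 3.72 and 4.69 times *Sox9* in GCE/+ cells and 4.92 and 4.95 times *Sox9* in GCE/GCE cells. Against *Sox6*, *Col2a1* went from 56.6 and 54.9 times in GCE/+ cells to 50.7 and 51.1 times in GCE/GCE cells. Against *Sox5* it was 45.4 and 41.6 times in GCE/+ cells and 34.8 and 33.1 times in GCE/GCE cells. By these point values, *Col2a1* was higher relative to *Sox9* and lower relative to both SoxD genes in GCE/GCE cells. For *Sox6*, however, the 95% counting intervals of both GCE/+ samples overlapped those of both GCE/GCE samples. For *Sox9* they overlapped between GCE/+ replicate 2 (4.56 to 4.83) and GCE/GCE replicate 1 (4.80 to 5.04). Only for *Sox5* were the intervals of the genotypes apart. These ratios were not tested. The part that a differing share of cartilage-forming cells in the sort had in the rise of the trio was not tested.

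**Figure D5:**
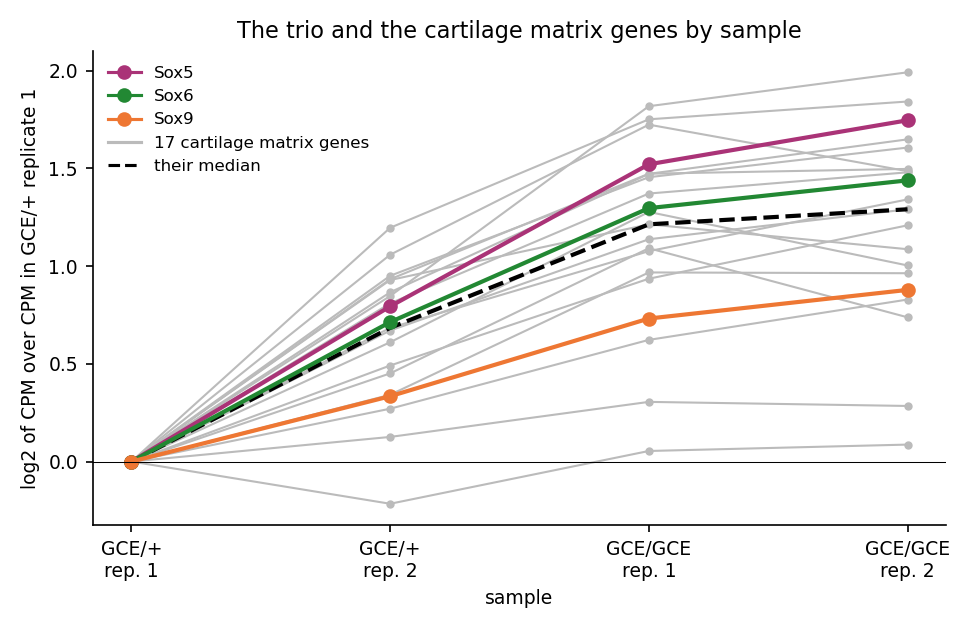
Log2 of CPM over the CPM in GCE/+ replicate 1 (y axis) in the 4 samples (x axis) for *Sox5*, *Sox6*, *Sox9* and 17 cartilage matrix genes in grey, with their median dashed; a line joins the values of 1 gene. *Sox6* reaches 1.44 and *Sox5* 1.75 in GCE/GCE replicate 2, beside 1.29 for the median matrix gene and 0.88 for *Sox9*.

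For each member, the 5 genes of most similar profile were found among 13468 tested genes whose mean reached 1 CPM, by the root mean square difference of centred log2 CPM over the 4 samples. For *Sox6* these were *Col9a1* (0.0371), *Col2a1* (0.0668), *Comp*, *Col9a3* and *Cer1*. For *Sox5* they were *Comp* (0.0648), *Ptprt*, *Susd5*, *D10Bwg1379e* and *Col11a2*. For *Sox9* they were *Zc3h12b* (0.0256), *Col9a2* (0.0389), *Papss2*, *Cyp26b1* and *Ano4*. Cartilage collagens thus stood among the nearest 5 of each member. *Sox6* ranked 7 in the list of *Sox5*, and *Sox9* ranked 101 there, with the same order of samples over a smaller range. Seen from *Sox9*, *Sox6* ranked 1019 and *Sox5* ranked 5842, so that neither was a near neighbour of *Sox9* by this measure. The profiles were centred but not scaled, so that the measure depends on the size of the changes as well as on their order. These profiles share 4 libraries and are a description.

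Of 6 further chondrocyte genes, 4 passed upward with edgeR and 5 with DESeq2, beside 0.895% and 1.65% of the genes that each tested. The edgeR calls were *Scrg1* (log2 fold change 1.46), *Susd5* (1.09), *Papss2* (0.58), which makes the sulfate donor for proteoglycans, and *Wwp2* (0.54), a ubiquitin ligase gene that hosts a microRNA induced by Sox9. All 6 had both GCE/GCE samples above both GCE/+ samples, beside 19.2% of all tested genes, and the median was 0.67. Of 9 genes for cofactors of Sox9, 1 passed upward, *Ppargc1a*, beside 0.895% of all tested genes. *Ppargc1a* rose by 0.66 (adjusted p = 0.0633) and was the 1 call of DESeq2, and the median of the 9 was 0.05. Among 18 genes of BMP and other signals that act on condensations, 1 passed, *Bmp4*, which fell by 0.38 on the log2 scale (adjusted p = 0.0988). Of all tested genes, 0.927% passed downward. At an unadjusted p under 0.05, 4 of the 18 were higher and 1 was lower, and the share of all tested genes was not counted. DESeq2 also called *Bmp5* higher (0.45, adjusted p = 0.0314), and the median was 0.06. Among 8 genes of factors that oppose chondrogenesis, such as *Twist1* and *Snai2*, none passed by edgeR or DESeq2, the median was -0.05 and the lowest adjusted p was 0.619 (*Tcf7*), with 0 of the 8 at an unadjusted p under 0.05.

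Genes of the neighbouring skeletal fates were mixed. Of 14 genes of hypertrophy and bone, 1 passed upward, *Runx2*, the master factor of osteoblasts, beside 0.895% of all tested genes. *Runx2* rose by 1.05 on the log2 scale (adjusted p = 0.0121), and the median of the 14 was 0.12. DESeq2 also called *Dlx5* (0.96, adjusted p = 0.00936) higher and *Spp1* (-0.58, 0.0410) lower. Of 8 tendon genes 4 passed the test, all upward, beside 0.895% of all tested genes. These were *Tnmd* (2.06), *Mkx* (1.09), *Fmod* (0.79) and *Tnc* (0.44). DESeq2 called 5 higher, beside 1.65% of its genes, and added *Scx* (0.68, adjusted p = 0.0193, and 0.131 with edgeR). The log2 fold change was above 0 for 7 of the 8, and the median of the 8 was 0.56. The tendon genes differed from the trio within GCE/+ cells, where replicate 2 was above replicate 1 for 1 of the 8. *Runx2* had 31.6 and 37.4 CPM in the heterozygous samples and 68.2 and 74.7 CPM in the homozygous ones.

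Markers of other cells that the sort could hold were counted beside the trio, as were those of connective tissue. The study found fibroblast markers in the sorted Osr1+ cells themselves. Macrophage markers were lower in GCE/GCE cells: 8 of 12 passed downward with edgeR and 10 with DESeq2, the former beside 0.927% of all tested genes, and all 12 were lower in each homozygous sample than in either heterozygous one, beside 19.1%. Their summed level was 339 and 346 CPM in the heterozygous samples and 216 and 150 CPM in the homozygous ones, and none was at 0. The markers of endothelium (10 tested), skeletal muscle (10), erythroid cells (8), Schwann cells and neural crest (10), epidermis (8) and connective tissue (10) made 56 genes. None of them passed in either direction with edgeR. An unadjusted p under 0.05 was found for 12 of the 56, and the share of all tested genes at that level was not counted. At that level, 5 endothelial genes were lower and 1 was higher, and 3 connective tissue genes were lower and 0 higher. The log2 fold change was above 0 for 2 of 10 endothelial genes (median -0.41) and 1 of 10 connective tissue genes (-0.18). For skeletal muscle it was above 0 for 7 of 10 (0.14). DESeq2 called 1 endothelial and 3 connective tissue genes lower, of 247 genes that it called lower in all. Erythroid markers summed to 511 and 174 CPM in the heterozygous samples and 341 and 313 CPM in the homozygous ones, so that GCE/+ replicate 1, the lowest sample for the trio, was the highest here. *Hba-a1* was listed at 0 in every sample. The part of these markers in the rise of the trio was not tested.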

How the data were processed

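RNA of 4 samples, 2 per genotype, was sequenced as 50-bp paired-end reads. The authors aligned the reads to mm9 (TopHat2, guided by UCSC gene models) and counted aligned fragments by HTSeq's strict intersection rule, and they deposited these raw counts, which are not normalized. Versions of these tools are not given in the sources used here. Genotype and replicate number came from the labels. Genes were filtered with filterByExpr, scaled by TMM and compared between genotypes with the two-sided quasi-likelihood test of edgeR (version 4.0.16, under R 4.3.3). P-values were adjusted over all 15645 genes by the Benjamini-Hochberg method, with a threshold of 0.1. The fit had 2 residual and 6.381 prior degrees of freedom. The fit was tested on simulated data. DESeq2 1.42.0 with its own size factors was an alternative. Others were RLE and upper quartile scaling, no filter on low counts, at least 10 counts in every sample, legacy and robust fits, the replicate number as a block, offsets for transcript length, an adjusted p under 0.05 and leaving out each sample. Symbols were matched to a GRCm38 annotation (97.9% directly or by a synonym), and no coordinates were converted from mm9. Lengths are the union of exons, and promoter windows come from RefSeq. Python 3.11.15 with pandas 2.3.3, scipy 1.17.1 and matplotlib 3.10.9 made the tables and plots. The members and gene lists were chosen with earlier results of these data known. Named are the members, called and related Sox genes, the 3 most abundant Sox and matrix genes, the list genes that passed, the 5 nearest profiles of each member and *Osr1*. *Xist*, *Bmp5*, *Comp*, *Dlx5*, *Epyc*, *Scx*, *Sox18*, *Spp1*, *Tcf7*, *Ucma* and *Hba-a1* were named after their values were seen.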

Additional observations from a re-analysis of the deposited data

How the results depend on the processing

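The rises of *Sox5*, *Sox6* and *Sox9* had the same direction under every alternative run. Their calls were lost without the filter on low counts (1.18, 0.97 and 0.63, with adjusted p of 0.149, 0.178 and 0.145) and at an adjusted p under 0.05 (1.19, 0.97 and 0.63). With the robust fit those of *Sox5* (1.19) and *Sox6* (0.97) were lost. The cause was not tested. Leaving out 1 library gave log2 fold changes of 0.84 to 1.64 for *Sox5*, 0.65 to 1.37 for *Sox6* and 0.47 to 0.81 for *Sox9*, from 199 to 961 called genes and from 7 to 15 called matrix genes. The count of 285 called genes became 502 with DESeq2, 127 without the filter and 130 at the stricter threshold. That of 4 matrix genes became 1 without the filter, 1 at the stricter threshold, 2 with the robust fit, 10 with the replicate block and 7 with the block and length offsets together. Replicate numbers were shared between genotypes, but deviations of same-numbered samples correlated at 0.0197 over 13469 genes, so the numbers were not taken to pair the samples. With the replicate block, *Sox5* was at 1.23 (adjusted p = 0.0268), *Sox6* at 1.01 (0.0395) and *Sox9* at 0.64 (0.0381), with 290 called genes. The lowest count of a member was 701, above the floor of 3 counts.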
